A study of Mus musculus with 2 samples.

Results

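The 10 immediate early genes examined in the mitral valve were Fos, Fosb, Jun, Junb, Egr1, Egr2, Egr3, Atf3, Ier2 and Nr4a1. They were taken by gene symbol from a table of 33640 genes, and all 10 were present. The tissue came from mice aged 5 months, of either wild-type genotype or heterozygous for the Fbn1 C1039G allele. That missense allele of the fibrillin-1 gene models Marfan syndrome. Each genotype was represented by 1 RNA library, made from 8 pooled valves of males and females, and the labels name no treatment or strain. Without replicates no value has an error and no test was run, so each difference below describes 2 libraries.

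Immediate early genes are transcribed within minutes of a stimulus, without new protein synthesis, when kinases of the MAPK cascade and calcium or cAMP signals activate factors already bound at their promoters. Serum response factor acts at CArG boxes and CREB at cAMP response elements. Most members encode transcription factors, which then act on later genes, and their mRNAs are short-lived. Growth factors, mechanical stretch, fluid shear, inflammatory signals and the handling of tissue are all known to induce them. Fos and Jun proteins pair as the AP-1 complex, EGR proteins bind GC-rich sites through zinc fingers, and Nr4a1 is an orphan nuclear receptor.

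As a group the members lay near the background of all genes. The 2 that differed most went in opposite directions and are the extremes of the 10. Egr2 was at 12.4 TPM in wild-type and 27.3 TPM in mutant valves, and Nr4a1 at 35.0 and 20.8 TPM. TPM is the length-corrected share of a transcript in its library. The difference was taken on the scale of log2(TPM + 1), with the wild-type value subtracted from the mutant one, and a gene was counted as 2-fold different when it reached 1 in size. All 10 members passed the filter, an average of at least 1 TPM over both libraries. Of the 10, 1 was at least 2-fold higher in mutant valves, Egr2, against 4.81% of all 17004 genes that passed. None of the 10 was at least 2-fold lower, against 1.72% of all genes. More TPM was found in mutant valves for 7 of the 10, against 64.9% of all genes, so that this count is near the background. Their median difference was 0.18, beside 0.14 over all genes that passed, and 5 of the 10 lay above that overall median. The summed level of the members was 269 TPM in wild-type and 301 TPM in mutant valves.

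The promoters of these 2 genes are shown because these members differed most, and in opposite directions. Each is the sequence 250 bases before a RefSeq start site (GRCm38.p6), and capitals mark a CArG box or the core of the cAMP response element, TGACG, searched on both strands so that it also appears as its reverse complement. The first lies at chr10:67537619-67537868 and the second at chr15:101266596-101266845, both on the plus strand, and neither overlaps a UTR in GENCODE M21.
Egr2: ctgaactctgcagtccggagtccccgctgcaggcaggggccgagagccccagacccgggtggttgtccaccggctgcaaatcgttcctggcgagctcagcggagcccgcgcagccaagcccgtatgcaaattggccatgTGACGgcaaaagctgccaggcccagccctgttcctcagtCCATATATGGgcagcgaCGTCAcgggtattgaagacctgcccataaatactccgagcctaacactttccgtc
Nr4a1: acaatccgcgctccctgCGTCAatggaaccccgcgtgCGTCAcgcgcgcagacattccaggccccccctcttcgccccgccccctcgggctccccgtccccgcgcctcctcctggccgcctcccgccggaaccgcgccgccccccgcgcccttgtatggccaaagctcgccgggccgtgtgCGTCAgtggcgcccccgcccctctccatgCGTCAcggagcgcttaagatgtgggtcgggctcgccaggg
In the Egr2 window 1 CArG box lay 72 to 63 bases before the start site, with 2 such cores, at 111 to 107 and 55 to 51 bases before it. Nr4a1 had 4 cores and no CArG box, and they began 233, 213, 69 and 40 bases before the start. It also held 1 EGR site (GCGNGGGCG) and 1 ETS site (CCGGAA). The Egr2 window, 1 of 5 listed, ends at the start of a principal GENCODE transcript. The only window listed for Nr4a1 ends at the start of a principal transcript too, while another principal transcript of this gene starts 12577 bases upstream and its promoter is not shown. Both genes have other annotated start sites, and which start the mRNA came from is not known here.

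RefSeq windows were found for 7 of the 10 members, all but Egr1, Egr3 and Ier2. The TGACG core occurred in 6 of these 7, and in 17.8% of 32851 windows of the same length over all genes. Jun was the member without one in this window. A CArG box occurred in 1 of the 7, Egr2, and in 1.47% of all windows. The full cAMP response element TGACGTCA was in none of the 7 and in 1.55% of all windows, and the AP-1 site TGANTCA in none of the 7 and in 6.75%. EGR sites were found in Fosb and Nr4a1, and in 4.70% of all windows, and the ETS site in Nr4a1 and in 12.0%. Of all windows 0.137% held 4 or more TGACG cores, as Nr4a1 did. That limit was set by the count in Nr4a1 itself, so the share is a description only. A gene can have several windows, and the windows were not matched for base composition. The core is part of the full element, and a match describes letters in these windows only.

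**Figure D1:**
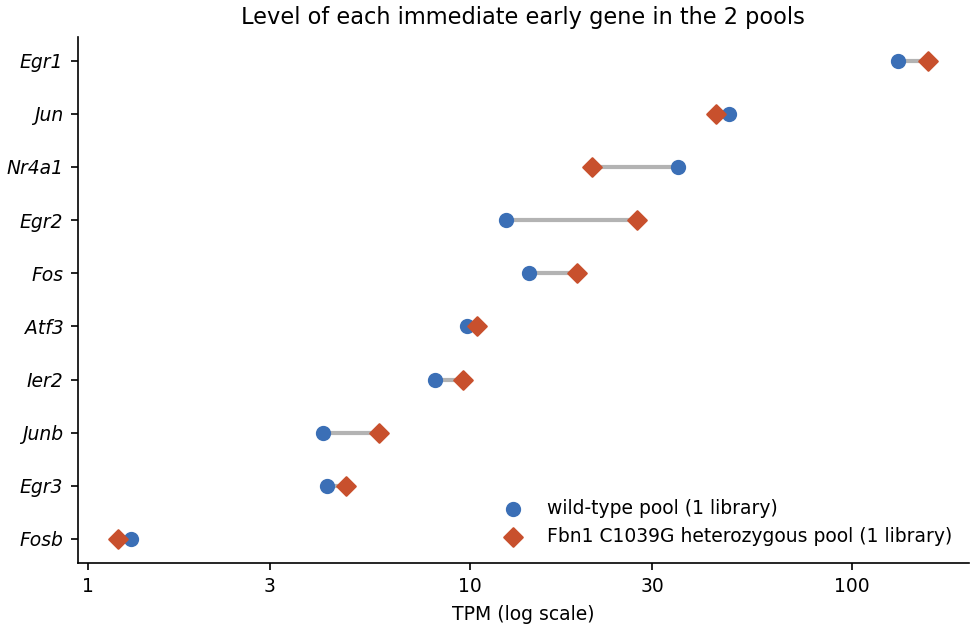
TPM of each of the 10 genes on a log axis, with a circle for the wild-type library, a diamond for the Fbn1 C1039G heterozygous pool and a line joining them, 1 library per point and no error. Egr1 is the most abundant gene in both pools, at 132 and 158 TPM, and the lines of Egr2 and Nr4a1 are the longest and run in opposite directions.

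The EGR zinc finger factors made up the largest part of the members' mRNA. Egr1, a factor induced by growth factors and shear, was at 132 TPM in wild-type and 158 TPM in mutant valves, a difference of 0.26. It was the most abundant member in each pool and took 49.1% and 52.5% of the members' summed TPM. Egr1 is on chromosome 18 at 34859823 to 34864984 (mm10, plus strand, ENSMUSG00000038418.7). Its mutant value was 1.20 times the wild-type value, and 38.7% of all genes that passed had a higher difference, so this gene stood near the middle.

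Egr2, a factor known for the myelination program of Schwann cells and also used by lymphocytes and macrophages, was at 12.4 TPM in wild-type and 27.3 TPM in mutant valves. Its level in mutant valves was 2.19 times that in wild-type valves, a difference of 1.07 that was 0.93 above the median of all genes. Egr2 is on chromosome 10 at 67535475 to 67542188 (plus strand, ENSMUSG00000037868.15). Of the 17004 genes that passed, 4.16% had a higher difference and 5.71% one at least as far from 0 in either direction. Among the 6917 genes with a mean TPM from 10 to 50, the band that holds Egr2, 140 genes or 2.02% had a difference at least as high. The central 95% of that band ran from -0.61 to 1.001. The 2-fold call is a narrow one: the difference was 0.96 when centred on the median of genes averaging at least 10 TPM, 0.93 after quantile normalization and 0.89 with a pseudocount of 5, so that under these 3 settings no member was 2-fold higher.

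Egr3, which acts in lymphocytes and muscle spindles, was at 4.24 and 4.73 TPM in wild-type and mutant pools (chromosome 14, 70077203 to 70082614). Its difference of 0.13 became -0.09 after quantile normalization. Egr4 was listed at 0 in both pools. Within the EGR family the share of Egr2 was 8.37% in wild-type and 14.4% in mutant valves, and that of Egr1 was 88.8% and 83.2%. Egr2 was thus higher relative to Egr1 in mutant valves as well, at 0.0943 and 0.173 of the Egr1 level, a ratio that dividing a library by a constant does not alter.

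Nr4a1, the receptor also called Nur77, is induced in T cells by their antigen receptor and is required by patrolling monocytes. It was at 35.0 TPM in wild-type and 20.8 TPM in mutant valves. The mutant value was 0.595 of the wild-type value, a difference of -0.72, or -0.86 relative to the overall median. Nr4a1 is on chromosome 15 at 101254269 to 101274795 (plus strand, ENSMUSG00000023034.7). Of the 17004 genes, 3.30% had a lower difference and 13.2% one at least as far from 0 in either direction. In its band of 10 to 50 TPM, 118 of 6917 genes, or 1.71%, had one at least as low. It did not reach the 2-fold limit under any of the 8 alternatives tried, and its difference ran from -0.86 to -0.63 over the reported and alternative settings.

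The other NR4A receptors differed less. Nr4a2 was at 43.0 TPM in wild-type and 48.2 TPM in mutant valves, and Nr4a3 was at 16.9 and 13.8 TPM. The family summed to 94.8 and 82.8 TPM, and the share of Nr4a1 was 36.9% in wild-type and 25.1% in mutant valves. Nr4a2 was the most abundant of the 3 in both. Set against each other, Egr2 was at 0.356 of the Nr4a1 level in wild-type valves and 1.31 times that level in mutant valves, so that the 2 genes stand in opposite order in the 2 libraries.

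**Figure D2:**
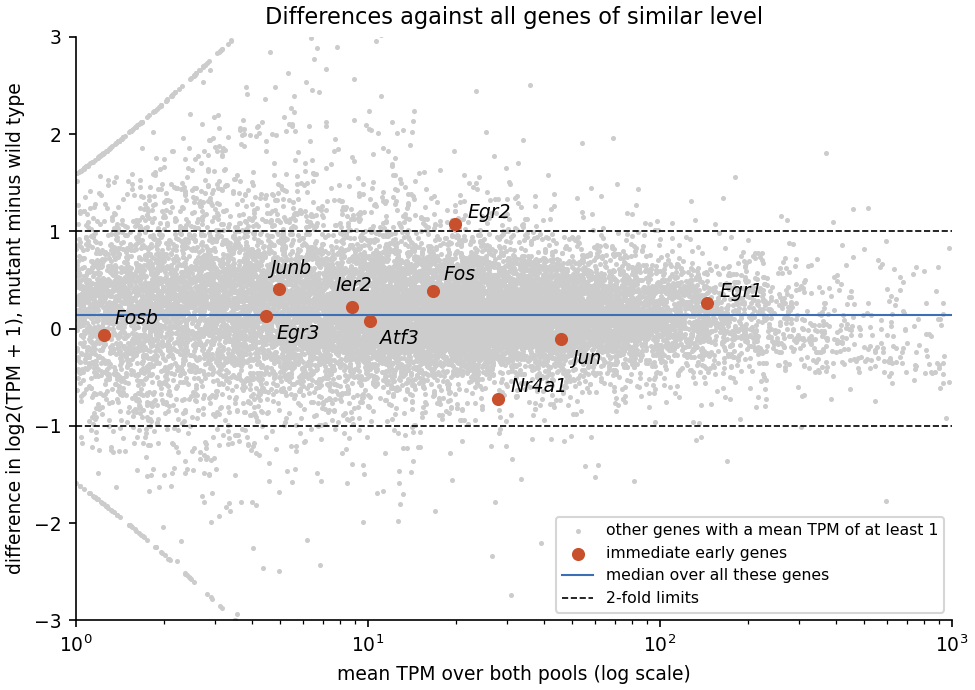
Mutant minus wild-type difference in log2(TPM + 1) against mean TPM over both pools on a log axis. Red points are the 10 immediate early genes, grey points other genes with an average TPM of 1 or more (142 lie outside the axes), the blue line is the median of 0.14 and dashed lines are the 2-fold limits. Egr2 at 1.07 lies just past the upper limit, Nr4a1 at -0.72 inside the lower one, and the other 8 lie between -0.11 and 0.41.

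The AP-1 genes encode subunits with a leucine zipper, through which Fos proteins pair with Jun proteins. Fos was at 14.3 TPM in wild-type and 19.0 TPM in mutant valves, a difference of 0.39 (chromosome 12, 85473890 to 85477273, plus strand, ENSMUSG00000021250.13). Fosb was at 1.30 and 1.20 TPM, near the filter, and its difference was -0.06 (chromosome 7, 19302696 to 19310051). Fos exceeded Fosb by 11.0 times in wild-type and 15.8 times in mutant valves. Neither was the main Fos gene of this tissue by TPM.

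Fosl2, a further family gene whose protein lacks the strong activation domain of Fos, took 80.4% and 79.6% of the family's TPM, at 69.5 TPM in wild-type and 90.9 TPM in mutant valves. Fosl1 was at 1.38 and 3.01 TPM, a difference of 0.75 that passed 1 with a pseudocount of 0.1 (1.07) because the gene is low. The FOS family as a whole was at 86.5 TPM in wild-type and 114 TPM in mutant valves.

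Jun, the main Jun gene here, was at 47.7 TPM in wild-type and 44.1 TPM in mutant valves, a difference of -0.11. It is a single-exon gene on chromosome 4 at 95049034 to 95052222 (minus strand, ENSMUSG00000052684.4), overlapped by the antisense gene Junos. Junb, which can oppose Jun in the control of growth, was at 4.12 and 5.79 TPM, 0.41 on the log2 scale (chromosome 8, 84974484 to 84978718). A non-coding transcript of Junb overlaps the end of Prdx2 on the opposite strand, a peroxiredoxin gene at 255 TPM in wild-type and 250 TPM in mutant valves. Whether the counting used strand is not given in the sources used here, so reads of overlapping stretches cannot be told apart. Jund, the remaining Jun gene, was at 13.1 and 10.6 TPM. Jun took 73.4% and 72.9% of the family's TPM, and Junb 6.34% and 9.56%.

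The JUN family summed to 64.9 TPM in wild-type and 60.5 TPM in mutant valves. Fos stood at 0.300 of the Jun level in wild-type and 0.432 in mutant valves. Both families differed less than 2-fold, and with 1 library of each genotype the size of ordinary variation between such pools is not known.

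**Figure D3:**
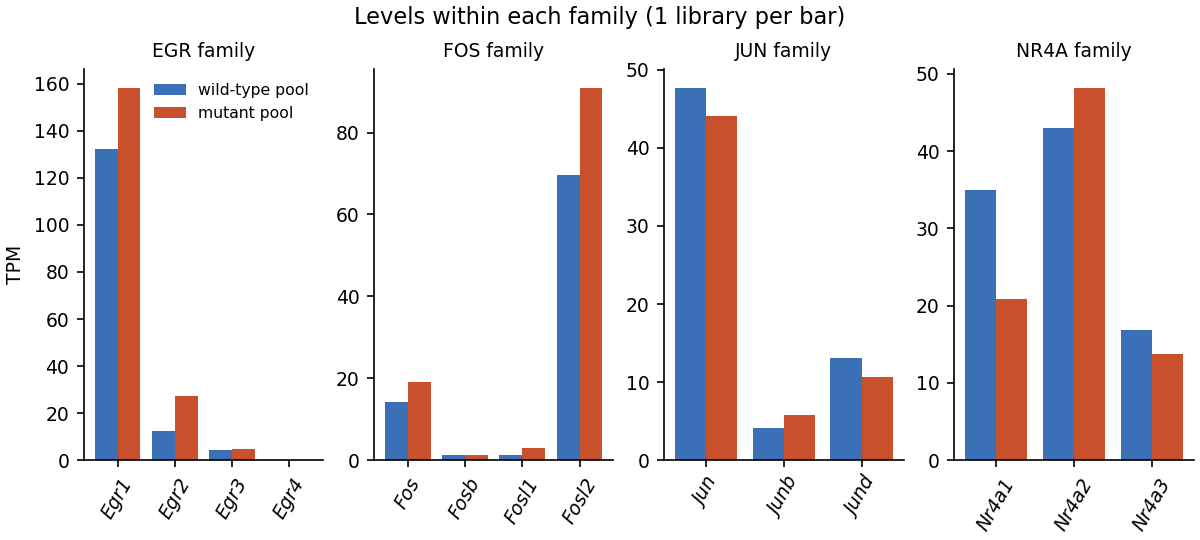
TPM of every gene of the EGR, FOS, JUN and NR4A families in the wild-type (blue) and mutant (red) pool, 1 library per bar, each panel with its own axis from 0. Egr1, Fosl2, Jun and Nr4a2 are the tallest bars of their families in both pools, and Egr4 is listed at 0.

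The remaining members encode a stress-induced factor and a small nuclear protein. Atf3, a leucine zipper factor of the ATF family that is induced by many stresses and represses inflammatory genes, was at 9.83 TPM in wild-type and 10.4 TPM in mutant valves. Its difference of 0.08 turned to -0.03 when centred on the median and to -0.09 after quantile normalization (chromosome 1, 191170296 to 191218039). Ier2, a nuclear protein of the immediate early response family, was at 8.10 and 9.59 TPM, with a difference of 0.22, and has 1 exon on chromosome 8 at 84661331 to 84662852. Relative to the overall median Atf3 was at -0.065 and Ier2 at 0.076.

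In the wild-type library the order from high to low was Egr1, Jun, Nr4a1, Fos, Egr2, Atf3, Ier2, Egr3, Junb and Fosb. In the mutant library Egr2 came after Jun, before Nr4a1 and Fos, and Junb came before Egr3. The span was wide, with Egr1 at 101 times the TPM of Fosb in wild-type and 131 times in mutant valves. Neighbours such as Egr3 and Junb, at 4.24 and 4.12 TPM in wild-type valves, are close, and without replicates no spread can be set against any step of the order.

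Related genes were listed by role. Of 38 other immediate early genes 35 passed the filter, none was 2-fold different and the median was 0.21. Over all genes 4.81% were at least 2-fold higher and 1.72% lower, so none in a list this short is near the background. More TPM was found in mutant valves for 24 of the 35, or 68.6%, near the 64.9% of all genes. The most abundant were Ctgf, a matricellular growth factor gene and YAP and SRF target (298 TPM in wild-type and 401 TPM in mutant valves), and Mcl1, a survival factor (128 and 145 TPM). The largest differences among those averaging at least 5 TPM were those of the clock gene Per1 (22.6 and 37.8 TPM) and of Bhlhe40, a repressor also tied to the clock (85.0 and 133 TPM). Npas4, a neuronal gene, was listed at 0 in both pools, as was Egr4. Among all 45 immediate early genes that passed, members included, Egr2 had the highest difference and Nr4a1 the lowest. Next to them came Fosl1 (0.75) and the shear-induced Klf2 (-0.48), the latter named after its value was seen.

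Genes that limit the response had a median of 0.03. Of 21 feedback inhibitors 20 passed and none was 2-fold different, near the 4.81% higher and 1.72% lower of all genes. Dusp1, a phosphatase that inactivates MAP kinases, was at 158 TPM in wild-type and 174 TPM in mutant valves, and the mRNA decay factor gene Zfp36l1 was at 182 and 177 TPM. Nfkbiz, an NF-kB cofactor, was at 23.6 and 39.5 TPM and Socs3, an inhibitor of cytokine receptors, at 5.11 and 7.81 TPM.

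Upstream of the members, none of 17 transcription factors and none of 18 kinases was 2-fold different. The shares over all genes were 4.81% higher and 1.72% lower, so both counts are near the background. The medians of the factors and kinases were 0.10 and 0.11. Among the factors, Mef2a was at 180.1 TPM in wild-type and 199 TPM in mutant valves, and the ternary complex factor genes Elk4 and Elk1 at 138 and 152 TPM and at 13.5 and 19.8 TPM. The CREB coactivator gene Crtc2 was at 70.03 and 96.4 TPM. Of the kinases, Mapk3, which encodes ERK1, was at 151 and 119 TPM, Mapk14 (p38) at 70.3 and 90.6 TPM, Map2k2 at 36.5 and 52.8 TPM and Src at 7.07 and 13.3 TPM. These are mRNA levels, and kinase activity was not measured.

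Among the related lists, the textbook targets of AP-1 had the highest median. Of 14 AP-1 targets 13 passed, 12 of them had more TPM in mutant valves, 4 were at least 2-fold higher and the median was 0.64. Over all genes 64.9% had more TPM in mutant valves and 4.81% were at least 2-fold higher. The AP-1 list was drawn up with the high values of several of its genes in these libraries already known, so its count supports nothing about AP-1. Mt2, a metallothionein, was at 165 TPM in wild-type and 576 TPM in mutant valves, Timp1, an inhibitor of metalloproteinases, at 90.9 and 269.9 TPM, and the structural gene Vim at 2797 and 3167 TPM. The other 2 of the 4, named after their values were seen, were Ccl2 (30.6 and 85.1 TPM) and Il6. The latter was listed at 0 in wild-type valves and at 4.95 TPM in mutant valves, so that no fold is given for it. Il6 averaged 1 TPM or more only through the mutant pool, so its inclusion follows from the difference.

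EGR targets gave a median of 0.33 over 11 of 12 genes. Of the 11, 7 or 63.6% had more TPM in mutant valves, near the 64.9% of all genes. Thbs1 was at 399 TPM in wild-type and 502 TPM in mutant valves, and Id3 was at 221 and 207 TPM. Cytoskeletal targets of SRF had a median of 0.03, with 6 of 12 genes on each side. Actb was at 1999.5 and 1789.5 TPM, Actg1 at 543 and 518 TPM, Tagln at 32.5 and 49.2 TPM and Myl9 at 31.3 and 22.4 TPM.

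Heat shock genes, which tissue handling can also induce, ran from -0.19 to 0.38. None of the 15 was 2-fold different, near the 4.81% higher and 1.72% lower of all genes. The median was 0.05, with 1 of the 15 above the overall median. Their sum was 3182 TPM in wild-type and 3299 TPM in mutant valves. Hspa8 was at 907 and 930.3 TPM, Hsp90ab1 at 850.5 and 819 TPM, Hspb1 at 128 and 112 TPM and the endoplasmic reticulum chaperone gene Hspa5 at 390.4 and 509.7 TPM.

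Markers of several cell types also differed between the libraries. The marker lists were chosen with earlier results of these data known, so their counts and medians are descriptions only. Whether the markers vary together with the immediate early genes was not tested, since each gene has a single difference. In such bulk tissue, fewer cells of a type and less RNA per cell cannot be told apart. Monocyte markers summed to 183 TPM in wild-type and 329 TPM in mutant valves. Each of the 8 had more TPM in mutant valves, against 64.9% of all genes. Ace, also an endothelial gene, made up most of both sums, at 142 and 227 TPM, and the chemokine receptor gene Ccr2 was at 11.8 and 35.0 TPM. Plac8 (0 and 5.29 TPM), Chil3 (0.12 and 3.56 TPM) and Treml4 (0.56 and 3.01 TPM) averaged 1 TPM or more only through the mutant pool, so their inclusion follows from the difference. The list's median was 1.27, and it was 0.73 with a pseudocount of 5 and 0.89 among genes averaging 5 TPM or more. Neutrophil markers summed to 19.1 and 105 TPM, of which S100a9 gave 2.34 and 48.0 TPM and S100a8 0.37 and 16.2 TPM, the latter also passing only through the mutant pool. Of the 11, Ly6g and Elane were listed at 0 in both pools, Ngp in wild-type valves and Ltf in mutant valves, and the median was 1.36 over the 7 that passed and 0.13 over all 11. Macrophage markers summed to 2139 and 2548 TPM, with 11 of 12 higher in mutant valves, against 64.9% of all genes. None of the 12 was 2-fold different, near the 4.81% higher and 1.72% lower of all genes.

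T cell markers went the other way. Of 8, 7 had less TPM in mutant valves, against 5970 of all 17004 genes. At least 2-fold lower were 5 of the 8, against 1.72% of all genes. This list too was chosen with earlier results known, so these counts are descriptions only. The 8 summed to 96.1 TPM in wild-type and 57.9 TPM in mutant valves, with no marker listed at 0. Their median was -1.24, and -0.71 with a pseudocount of 5. T cells express Nr4a1, and patrolling monocytes do too, while macrophages and lymphocytes express Egr2. The part of these cells in the values of Egr2 and Nr4a1 was not tested. Schwann cell markers, set beside Egr2 for its role in those cells, summed to 79.0 and 65.7 TPM with a median of -0.02.

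Markers of the valve's own cells were present in both libraries. The 10 interstitial and fibroblast markers summed to 19026 TPM in wild-type and 18866 TPM in mutant valves. Dcn made up most of both sums, at 11409 and 9304 TPM, and Lum was lower too. The other 8 of the 10 had more TPM in mutant valves, against 64.9% of all genes, and the median was 0.21. Postn was at 1269 and 2263 TPM and Tbx20 at 703 and 1253 TPM. None of the 10 was 2-fold different, near the 4.81% higher and 1.72% lower of all genes. The 9 endothelial markers summed to 625 and 634 TPM. Even so, 7 of the 9 had less TPM in mutant valves, against 5970 of all 17004 genes. Cardiac muscle markers were found too, at 2008 and 1480.0 TPM, with 8 of 10 lower in mutant valves, against that same background. Red blood cell markers summed to 6801 and 687 TPM. Smooth muscle, mast cell, melanocyte and B cell markers summed to 440.1, 55.5, 129 and 3.58 TPM in wild-type valves and 523, 85.7, 66.6 and 4.32 TPM in mutant valves.

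**Figure D4:**
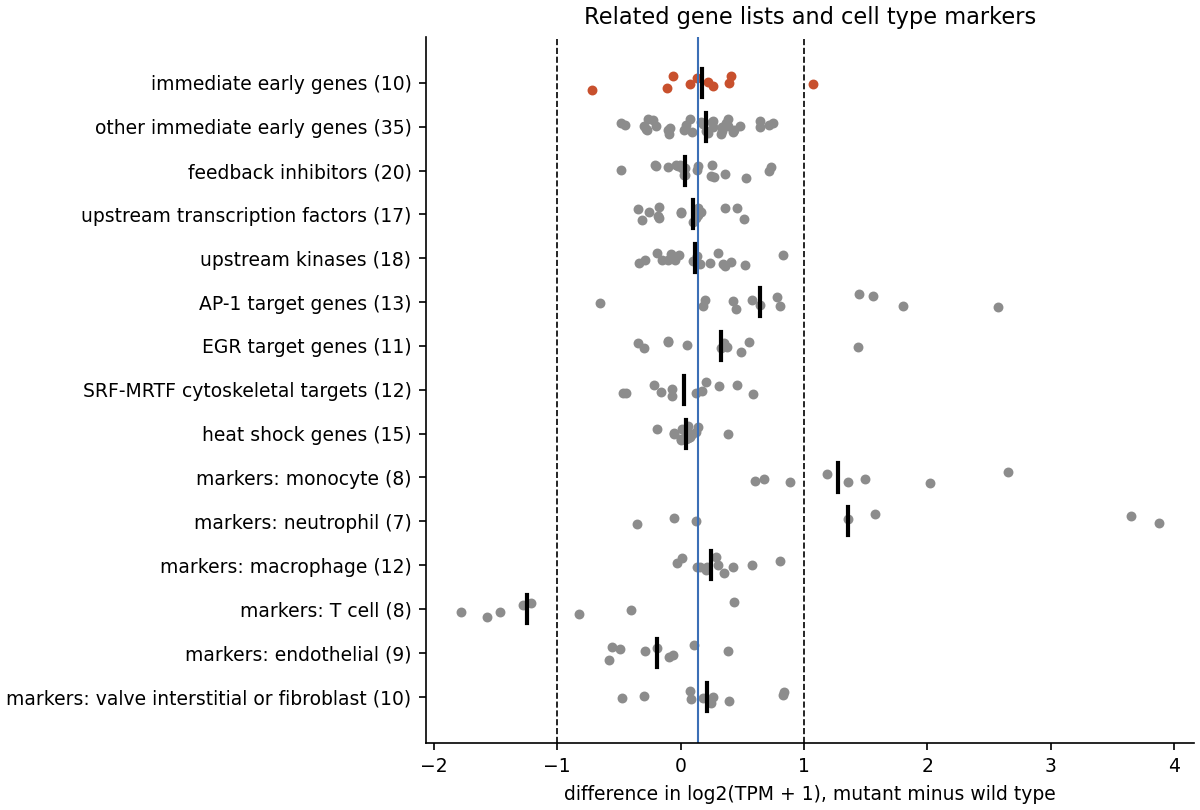
Mutant minus wild-type difference in log2(TPM + 1) of each gene averaging 1 TPM or more (points) in the 10 immediate early genes (red), in 8 related lists and in 6 marker lists (grey), with the number of genes in brackets. Black bars are list medians, the blue line the median over all genes and dashed lines the 2-fold limits. The members' median of 0.18 sits beside the blue line. Medians farther from it are those of the AP-1 targets (0.64) and of neutrophil (1.36), monocyte (1.27) and T cell (-1.24) markers. All lists were chosen with earlier results of these data known, and the AP-1 list with several of its values known. The neutrophil median was 0.13 over all 11 markers. With a pseudocount of 5 the monocyte and T cell medians were within the 2-fold limits (0.73 and -0.71).

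The direction of 8 members held whichever way the libraries were scaled. Egr1, Egr2, Fos, Ier2 and Junb had more TPM in mutant valves and Fosb, Jun and Nr4a1 less under every alternative that gave a value, while Atf3 and Egr3 changed sign as given above. A pseudocount or a filter cannot change the sign of a gene. Only centring, quantile normalization and the removal of abundant and predicted genes could do so. The difference of Ier2 ran down to 0.05 and that of Fosb from -0.27 to -0.02, so these are small in every case.

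**Figure D5:**
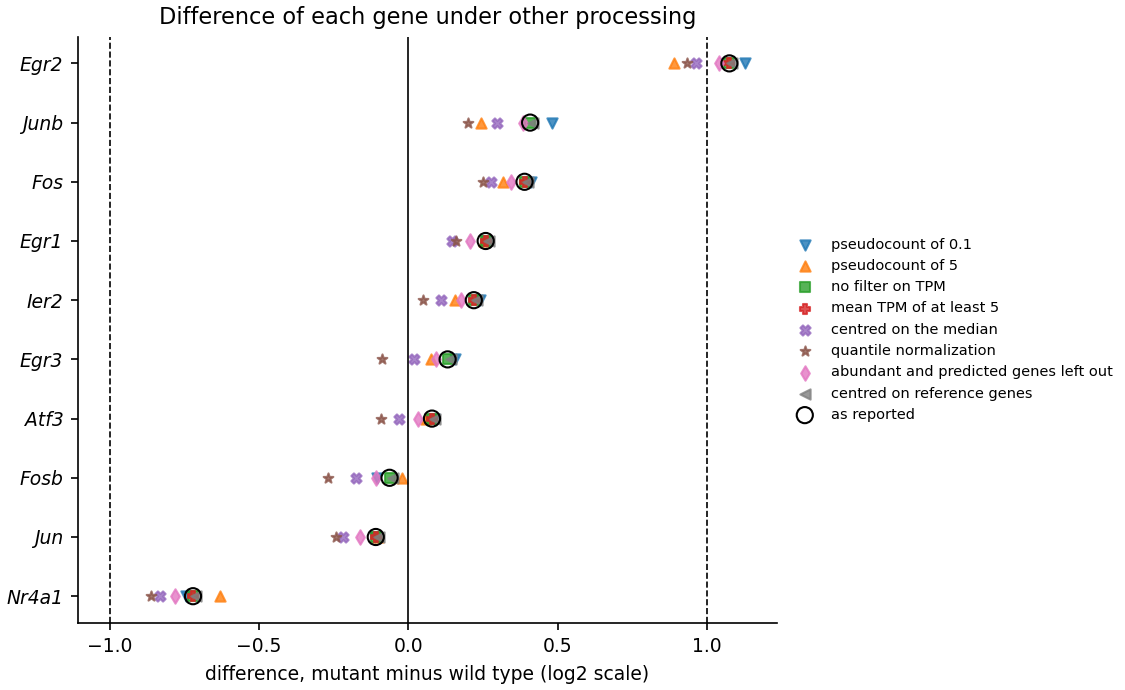
Difference of each of the 10 genes on the log2 scale as reported (open circles) and under 8 alternatives (coloured symbols), with dashed lines at the 2-fold limits. Egr2 runs from 0.89 to 1.13 across its limit, Nr4a1 from -0.86 to -0.63, and the symbols of Atf3 and Egr3 lie on both sides of 0.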

How the data were processed

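RNA of pooled mitral valves was amplified (Ovation RNAseq v2) and sequenced as 1 library per genotype, per the labels' protocols. The authors deposited 1 TPM value per gene symbol and library, per the file headers, summing to 999964 and 999945. Trimmomatic, HISAT2, kallisto and mm10 are named in the submitters' processing notes, while versions, the annotation and the summing of transcripts per gene are not stated there. TPM keeps no depth, so depth is unknown and no interval was computed. Amplified reads are not independent molecules, and reads of low genes such as Fosb can be few.

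Here differences of log2(TPM + 1) were computed with Python 3.11.15, pandas 2.3.3 and numpy 2.4.6, over genes averaging 1 TPM or more, and the code was tested on simulated data. No test was possible. The members, 8 related lists and 13 marker lists were chosen with earlier results of these data known. Named from each related list were the 2 most abundant genes, the 2 with the largest difference among those averaging 5 TPM or more, and the members' family genes. Some genes that this rule names are not reported here. No genes were named for a similar pattern, since 2 libraries give a single difference. Coordinates are from GENCODE M21 (mm10) and promoters from RefSeq (GRCm38.p6), with motifs found on both strands. For Egr2 the window nearest to the start of the principal GENCODE transcript was used. Alternatives were pseudocounts of 0.1 and 5, no filter or an average of 5 TPM or more, centring on the median of genes averaging 10 TPM or more or on 10 reference genes, quantile normalization, and removal of abundant and predicted genes (mitochondrial, globin and ribosomal protein genes, Gm and Rik symbols).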

Additional observations from a re-analysis of the deposited data

How the results depend on the processing

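No paired analysis was possible because each genotype has 1 library, and for the same reason no replicate could be left out. Depth is unknown and limits low genes most. The difference of Egr2 was 0.89 with a pseudocount of 5, 0.96 centred on the median and 0.93 after quantile normalization, so that the count of members at least 2-fold higher was 0 there and 1 under the other 5 alternatives. No member was 2-fold lower under any of the 8. Atf3 moved to -0.032 when centred and -0.090 after quantile normalization, and Egr3 to -0.089 after the latter. The members' median was -0.020 after quantile normalization, when that of all genes was -0.014, and without a filter the latter was 0. Members with more TPM in the mutant pool numbered 5 to 7. The count was 5 of all 10 after quantile normalization. It was also 5 among genes averaging 5 TPM or more, where Fosb, Junb and Egr3 did not pass.

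Of all genes tested, 818 were 2-fold higher and 293 lower, a share of 73.6% higher. These counts were 1264 and 464 with a pseudocount of 0.1, 209 and 87 with one of 5, 360 and 103 among genes averaging 5 TPM or more, and 540 and 462 (53.9% higher) after quantile normalization. Centring gave 64.4% higher. Without abundant and predicted genes 499 were higher and 278 lower (64.2% higher).

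Related lists with medians near 0 changed sign. When centred, feedback inhibitors were at -0.077, upstream transcription factors at -0.0069, SRF targets at -0.083 and heat shock genes at -0.066. After quantile normalization these were -0.10, -0.023, -0.00069 and -0.081, and upstream kinases -0.024. With abundant and predicted genes left out, feedback inhibitors were at -0.018, kinases at -0.0098, SRF targets at -0.0065 and heat shock genes at -0.0077. SRF targets were at -0.0074 with a pseudocount of 5 and -0.067 among genes averaging 5 TPM or more. Centring takes 0.111 from the difference of every gene, so a median above 0 but below 0.111 turned negative by arithmetic. The SRF median of -0.067 was the value of Tpm2, since Cnn1 (mean 1.27 TPM) did not pass that filter. For the remaining settings the cause was not tested. The medians of the other immediate early genes, the AP-1 targets and the EGR targets stayed above 0 under all 8, but that of the other immediate early genes fell from 0.21 to 0.098 when centred and 0.076 after quantile normalization. That of the EGR targets fell from 0.33 to 0.19 without a filter and among genes averaging 5 TPM or more, 0.22 when centred and 0.21 after quantile normalization.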
